A study of Sinotaia aeruginosa with 24 samples.

Results

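The comparison described here set 3 brain libraries from freshwater snails given cadmium together with polystyrene microplastics against 3 brain libraries from control snails. The members were chosen by their labels, with earlier results of these data known. They make up 6 of the 24 samples of the series, which also holds brains given a single agent and livers under the same treatments. The species is labelled Sinotaia aeruginosa, and the study's title uses the name Bellamya aeruginosa. The agents reached the snails through algal food that was supplied daily, and RNA was taken on day 42. The combined group received the medium level of each agent and the controls received neither. The concentrations behind "medium" are not stated in the labels. The labels number the 3 control libraries and the 3 combined libraries 4, 5 and 6, and values below follow that order. Nothing in the labels says that each library came from a separate animal. The p-values and standard errors therefore reflect only how far libraries spread within groups, and that spread may be technical. It was estimated over all 12 brain libraries, including those given a single agent.

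Cadmium is a toxic metal that binds thiol groups and displaces zinc and calcium from proteins, and polystyrene particles are plastic fragments that filter-feeding and grazing molluscs take up with their food. Molluscs have no antibodies, and their defence rests on blood cells and on large families of secreted recognition proteins, among them C-type lectins, ficolins and proteins with a C1q domain. GTPases of the IMAP family, caspases and inhibitor of apoptosis proteins are also present in molluscs in many copies. The snail brain is a ring of ganglia around the oesophagus, wrapped in connective tissue and close to muscle.

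Expression was measured by RNA sequencing and deposited as estimated (expected) counts for 233875 clusters of assembled transcripts, of which 23614 carried an informative protein name. Each name was taken from the closest database entry and stands for a family rather than for a proven gene. Clusters with the same name can be near-identical copies that share reads, and the split of reads between them is uncertain. The 6 libraries held 14850419 to 16345604 counts. The lists of neurotransmitter receptors and of neuronal markers were higher in brain than in liver. In control brains the receptor list had a median of 2442 CPM (counts scaled to a common library size), against 455 CPM in control livers, and the neuronal marker list had 5238 CPM against 1111 CPM. Of the neuronal marker list, 1 cluster with a notch-1 name alone averaged 2108 CPM in control brains. Synaptic release proteins did not mark the tissue, at 1998 CPM in control brain and 2509 CPM in control liver. Proteins of other tissues were also present. The muscle list had a median of 26774 CPM in control brain and 1949 CPM in control liver. Digestive enzymes had 9371 CPM in control brain and 24028 CPM in control liver. Control 5 stood somewhat apart, with a mean correlation of 0.884 to the other control libraries and 67477 CPM in mitochondrially encoded clusters, against 32207 and 31719 CPM in control 4 and control 6.

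At an adjusted p under 0.05 in edgeR's quasi-likelihood test, 2513 of the 64046 clusters tested differed between combined and control brains, which is 3.92% of them. Of these, 1367 were higher after the combined exposure (2.13%) and 1146 were lower (1.79%). Leaving out 1 library moved the total to 1502 without combined 5 and to 1656 without control 4, and fitting the 6 compared samples alone gave 1340. The balance of directions turned without control 4 (799 higher, 857 lower) and without control 5 (991 higher, 1074 lower). Where a named call was lost in the fit of the 6 samples alone, its adjusted p there is given beside the result. Where a named cluster was not tested in that fit, this is said instead. Among the 16726 tested clusters with an informative name, 294 were higher (1.76%) and 191 were lower (1.14%), so that 485 named clusters were called (2.90%). Clusters without an informative name had 2028 calls among 47320 (4.29%). The median absolute log2 fold change was 4.07 over all called clusters and 2.53 over the named ones, against 0.42 over all tested clusters. Calling favours large estimates, so the medians among calls follow in part from the threshold. Control and combined libraries did not overlap at 12386 of the 64046 tested clusters and at 481 of the 485 named clusters called. The rule that named the largest changes also required this. A lack of overlap stated below for a called cluster therefore describes its values and adds little to the call. Of the called clusters, 402 had no count in any control library and 357 had no count in any combined library. An absence of counts allowed a mean level of up to 0.0675 CPM in the controls and 0.0664 CPM in the combined group, at 3 counts over the 3 libraries. A cluster nearly absent from the other brain groups passed the filter on low counts only through the group where it was high.

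The named clusters were read through 38 functional lists, whose shares are set beside the 2.13% higher and 1.79% lower of all tested clusters. The lists held only clusters with an informative name, of which 1.76% were higher and 1.14% lower. Those shares also stand beside the counts of name families given below. GTPases of the IMAP family had 21.9% of their tested clusters higher, the mitochondrially encoded clusters 15.7% lower, muscle proteins 8.82% higher and the caspase and cell death list 7.0% lower. Lectins and complement-like proteins had 5.80% higher and inhibitors of apoptosis 5.26% higher. No member was called among 65 clusters of synaptic release proteins, 37 of endoplasmic reticulum folding, 108 cytosolic ribosomal proteins, 69 of glycolysis and the citric acid cycle, 126 lysosomal proteins, 132 ciliary proteins, 43 sperm and testis proteins and 18 egg and germline proteins. The smaller of those lists would hold few or no calls at the background shares, and a missed threshold does not show that levels were alike. The median log2 fold change was -0.19 for endoplasmic reticulum folding, where 5 of 37 clusters had a positive value. For ciliary proteins it was -0.16, with 35 of 132 positive, and over all tested clusters it was -0.01. These medians were not tested. Lists with few calls were lipid transport and metabolism with 6 higher (1.74%) and 2 lower (0.58%) of 345, nuclear-encoded respiratory chain subunits with 1 higher and 1 lower of 58, translation factors with 1 lower of 123, histone and chromatin proteins with 2 higher of 108, cell cycle and DNA proteins with 1 higher of 134, and digestive enzymes with 1 higher of 85. Oxygen carriers had 1 higher and 1 lower of 30, transmitter synthesis and uptake 1 higher and 2 lower of 85, and circadian and hormone proteins 1 lower of 30. The oxygen carriers had a median log2 fold change of -0.48, with a positive value at 4 of the 30, which was not tested as a set. The 6 lipid clusters that rose became 1 without control 4 and 2 without control 5, and counts this small moved in other omissions too.

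**Figure D1:**
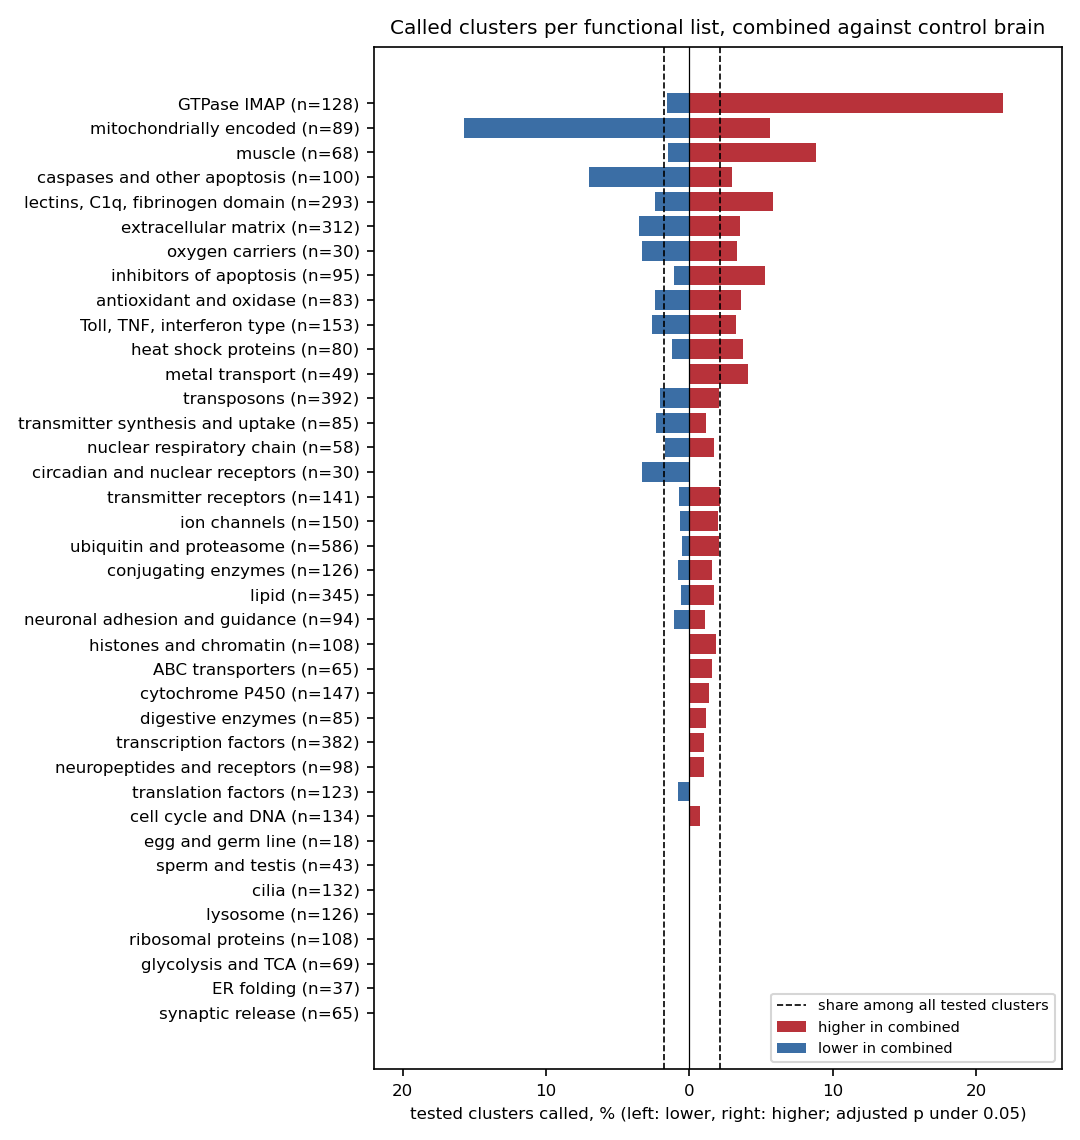
Share of tested clusters in each functional list that was called higher or lower in combined than in control brain, in percent, with dashed lines at the shares over all tested clusters (2.13% higher and 1.79% lower). The IMAP GTPases stand furthest out among the higher calls at 21.9%, and the mitochondrially encoded clusters among the lower calls at 15.7%.

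GTPases of the IMAP family, also called immune-associated nucleotide-binding proteins, are known from vertebrate lymphocytes and plants and are expanded in molluscs. Of 128 tested clusters, 28 rose and 2 fell, and the median log2 fold change over the list was 0.94, against -0.01 over all tested clusters. Summed over the family, the control libraries held 285, 242 and 294 CPM and the combined libraries held 428, 473 and 634 CPM. Every combined library lay above every control library. The brains given a single agent also lay above the controls, at 439 to 512 CPM with cadmium and 477 to 490 CPM with polystyrene. The number that rose was 20 to 32 when single libraries were left out.

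The IMAP family member 9 cluster Cluster-2499.38370 held 5.73, 3.34 and 6.24 CPM in controls and 21.4, 27.5 and 28.3 CPM after the combined exposure. All 3 combined libraries were above all 3 controls, and the log2 fold change was 2.33 ± 0.30 (SE, n = 3 against 3, edgeR adjusted p = 0.000996). The IMAP family member 4 cluster Cluster-2499.127502, chosen after its values were seen, held 3.0, 5.26 and 5.79 CPM in controls and 27.3, 15.4 and 36.6 CPM in combined brains (log2 fold change 2.5 ± 0.37, adjusted p = 0.0027). A second member 4 cluster, Cluster-2499.166560, was nearly absent from the controls, with 0, 0 and 0.260 CPM, and reached 7.5, 3.12 and 5.04 CPM (5.74 ± 0.83 on the log2 scale, adjusted p = 0.00197). The groups did not overlap at any of these clusters.

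Some IMAP clusters were detected in exposed brains alone. Cluster-2499.86745, matched to family member 9, had no count in the controls and 0.631, 4.81 and 10.0 CPM in the combined libraries, at least 76.3-fold higher (adjusted p = 0.00607). The 3 combined values of that cluster spread widely, with the lowest in combined 4. That cluster passed the filter on low counts only through the cadmium brains, at 3.02, 2.76 and 2.94 CPM. It was not tested in the 6 samples alone. Cluster-2499.166356, matched to immune-associated nucleotide-binding protein 6 and chosen after its values were seen, had no count in control, cadmium or polystyrene brains and held 4.35, 1.44 and 1.88 CPM in the combined ones, at least 37.8-fold higher than control (adjusted p = 0.0108, and 0.33 in DESeq2). It was the 1 cluster with an informative name that was called higher and had no count in any of the other 9 brain libraries. It passed the filter on low counts only through the combined brains.

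The 2 clusters of the family that fell were Cluster-2499.125670, matched to immune-associated nucleotide-binding protein 10, and Cluster-2499.125669, matched to IMAP family member 8. The former held 5.53, 18.3 and 5.66 CPM in controls and 1.26, 1.69 and 1.75 CPM in combined brains (log2 fold change -2.64 ± 0.51, adjusted p = 0.00999). Values of the latter were 3.0, 5.91 and 2.54 CPM against 0.561, 0.624 and 0.403 CPM (-2.83 ± 0.58, adjusted p = 0.014, and 0.0571 without combined 6). The most abundant tested cluster of the family, Cluster-2499.110837, did not pass the test, with 24.9, 18.9 and 23.7 CPM in controls and 31.0, 24.7 and 22.5 CPM in combined brains (adjusted p = 0.753).

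**Figure D2:**
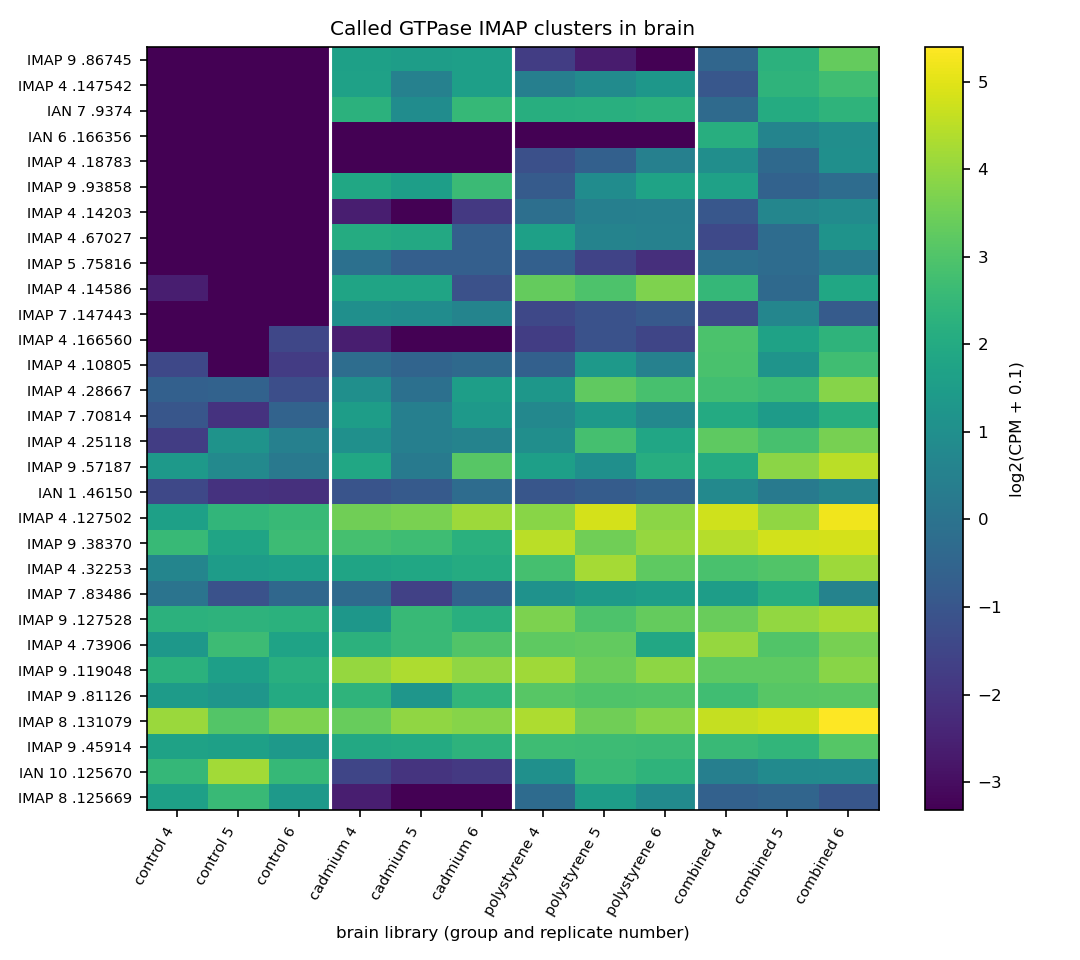
Levels of the 30 called clusters of the IMAP GTPase family in the 12 brain libraries, as log2(CPM + 0.1), with 1 row per cluster and columns ordered control, cadmium, polystyrene and combined. In 28 rows the combined columns are higher than the control columns and in 2 they are lower.

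Lectins and complement-like proteins bind sugars and other surface patterns on microbes and damaged cells. Of 293 tested clusters, 17 rose and 7 fell (2.39%), with a median log2 fold change of 0.26. The 7 that fell became 3 without combined 5 or control 4 and 4 without control 6. The largest rise was in Cluster-2499.20590, matched to complement C1q-like protein 4, with 0.133, 0 and 0.260 CPM in controls and 164, 67.4 and 35.6 CPM in combined brains. The combined libraries differed among themselves by several-fold and all lay far above the controls (log2 fold change 9.29 ± 0.74, adjusted p = 0.000124). This cluster was also higher than in either single exposure, where it averaged 10.7 CPM with cadmium (adjusted p = 0.00697) and 1.01 CPM with polystyrene (adjusted p = 0.00036).

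Of 18 tested clusters named C1q-like protein 4, 4 rose and 1 fell. Cluster-2499.27448 held 3.40, 2.06 and 2.08 CPM in controls and 15.8, 17.2 and 13.7 CPM in combined brains (2.62 ± 0.31, adjusted p = 0.000539). The 18 clusters summed to 511, 297 and 235 CPM in controls and 721, 508 and 531 CPM in combined brains, and the groups overlapped narrowly, since control 4 was above combined 5.

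Ficolins carry a fibrinogen-like domain that binds acetylated sugars, and 5 of 37 ficolin clusters rose while none fell. The 37 summed to 43.8, 41.1 and 77.6 CPM in controls and 126, 82.1 and 74.5 CPM in combined brains, which overlapped. Their mean sum was 112 CPM with cadmium and 80.9 CPM with polystyrene. Ficolin-1 cluster Cluster-2499.105227, chosen after its values were seen, held 0.0667, 0 and 0.130 CPM in controls and 3.50, 4.24 and 1.28 CPM in combined brains (5.33 ± 0.88, adjusted p = 0.00607). A cluster matched to hepatic lectin, a C-type lectin that binds glycoproteins in birds, was also chosen after its values were seen. This cluster, Cluster-2499.116594, held 2.87, 3.27 and 1.17 CPM in controls and 66.6, 24.3 and 72.9 CPM in combined brains (4.49 ± 0.67, adjusted p = 0.00563). Every combined library was above every control library for both. The hepatic lectin match averaged 19.6 CPM with cadmium and 65.7 CPM with polystyrene. There the combined brains passed the test against neither (adjusted p = 0.257 and 0.869). The ficolin-1 cluster averaged 0.0463 CPM with cadmium and 0 CPM with polystyrene, and passed the filter on low counts only through the combined brains.

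Clusters with C-type lectin as their name were called lower where they were called. The 14 tested clusters named C-type lectin summed to 936, 919 and 1035 CPM in controls and 377, 381 and 522 CPM in combined brains, with no overlap. Of them 2 fell and none rose, while the median log2 fold change over the 14 was 0.40, opposite in sign to the calls. Most of that sum came from Cluster-2499.66458, a C-type lectin matched to a mannose-binding isoform, with 788, 797 and 952 CPM in controls and 243, 268 and 338 CPM in combined brains (-1.58 ± 0.25, adjusted p = 0.00374). Its mean was 778 CPM with cadmium and 254 CPM with polystyrene. The combined brains were lower than the cadmium brains (adjusted p = 0.00673) and did not pass the test against polystyrene (adjusted p = 0.816). The second, Cluster-2499.65119, held 18.9, 12.2 and 9.88 CPM in controls and 1.12, 3.31 and 3.42 CPM in combined brains (-2.37 ± 0.36, adjusted p = 0.00251).

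Fibrinogen C domain-containing protein 1, a receptor for acetylated compounds in mammals, had clusters in both directions. Cluster-2499.80965 rose from 0.0667, 0 and 0 CPM to 1.61, 5.56 and 5.17 CPM (adjusted p = 0.00116), and Cluster-2499.94257 fell from 2.80, 2.77 and 2.93 CPM to 0, 0 and 0.403 CPM (adjusted p = 0.00763, and 0.054 in the 6 samples alone). The most abundant tested member of the lectin and complement list, a CD109 antigen of the thioester protein family (Cluster-2499.93180), varied widely and was not called. It held 514, 663 and 1317 CPM in controls and 45.8, 190 and 735 CPM in combined brains, and the groups overlapped (adjusted p = 0.44).

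Toll-like receptors, TNF receptors and their adaptors carry signals from microbes and cytokines to transcription factors. In the list of 153 tested clusters, 5 rose (3.27%) and 4 fell (2.61%), and leaving out single libraries gave 1 to 6 that rose, the lowest without control 6. Interferon-induced protein 44 is an antiviral response protein in vertebrates, and 3 of 9 tested clusters with its name fell. The 9 summed to 29.9, 20.2 and 28.6 CPM in controls and 15.8, 9.86 and 14.2 CPM in combined brains, with no overlap. Cluster-2499.91999, a 44-like member, had 4.80, 7.97 and 3.25 CPM in controls and no count in the combined libraries, at least 80.4-fold lower (adjusted p = 0.00227). Cluster-2499.36614 had 5.27, 1.64 and 2.60 CPM in controls and no count in the combined libraries, at least 47.7-fold lower (adjusted p = 0.00504). Both had no count in the cadmium brains either and were present with polystyrene, at means of 8.30 and 3.91 CPM.

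Receptors named for the TNF receptor superfamily were called in both directions. Cluster-2499.100633, matched to member 11B, held 14.1, 15.9 and 17.3 CPM in controls and 2.45, 4.68 and 4.97 CPM in combined brains (-1.96 ± 0.30, adjusted p = 0.00283). Cluster-2499.79458 held 7.67, 6.12 and 4.10 CPM in controls and 15.3, 11.8 and 16.3 CPM in combined brains (1.28 ± 0.25, adjusted p = 0.0108, and 0.0703 in the 6 samples alone). In each case the groups were separate.

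Inhibitor of apoptosis proteins carry baculoviral repeat domains, and some of them bind and block caspases. Of 95 tested clusters, 5 rose (5.26%) and 1 fell (1.05%), with a median log2 fold change of 0.24, and 8 rose without combined 4. Cluster-2499.95251 had no count in the controls and 11.4, 6.18 and 4.30 CPM in the combined libraries, at least 108-fold higher (adjusted p = 0.000196). A putative inhibitor, Cluster-2499.97412, held 8.73, 3.56 and 7.67 CPM in controls and 41.9, 19.0 and 22.3 CPM in combined brains (2.06 ± 0.33, adjusted p = 0.00395). Cluster-2499.122714, matched to the ubiquitin ligase IAP-3, had no count in controls and 2.59, 1.75 and 2.35 CPM in combined brains, at least 33.0-fold higher (adjusted p = 0.00063). For all of these the combined values lay above every control.

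The 1 cluster of the list that fell was matched to XIAP, the ubiquitin ligase that inhibits caspases in mammals. Cluster-2499.107046 held 26.8, 18.7 and 18.5 CPM in controls and 9.18, 9.11 and 9.33 CPM in combined brains (-1.21 ± 0.20, adjusted p = 0.00458). The 3 combined libraries were almost equal and below every control. Another XIAP match, Cluster-2499.90050, rose from 4.73, 2.56 and 3.19 CPM to 8.13, 9.61 and 11.7 CPM (1.49 ± 0.30, adjusted p = 0.0115, and 0.0541 in the 6 samples alone) and was chosen after its values were seen. The most abundant tested member, matched to baculoviral IAP repeat-containing protein 7-A (Cluster-2499.89469), did not pass the test at 225, 91.2 and 230 CPM in controls and 340, 303 and 357 CPM in combined brains (adjusted p = 0.116).

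Caspases are the proteases that carry out apoptosis, with caspase-8 among the initiators and caspase-3 among the executioners. Of 45 tested caspase clusters, 5 fell and none rose. Their sum was 550, 443 and 600 CPM in controls and 327, 389 and 410 CPM in combined brains, with no overlap. Caspase-3 cluster Cluster-2499.123164 held 25.3, 26.5 and 16.4 CPM in controls and 2.10, 2.12 and 1.61 CPM in combined brains (-3.54 ± 0.39, adjusted p = 0.00038). Caspase-8 cluster Cluster-2499.123163 held 27.9, 27.9 and 27 CPM in controls and 3.22, 5.18 and 1.01 CPM in combined brains (-3.13 ± 0.56, adjusted p = 0.00968). Every control library was several-fold above every combined library at both clusters.

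The neighbouring identifiers Cluster-2499.123162, matched to caspase-2, and Cluster-2499.123161, matched to caspase-3, also fell (-2.70 ± 0.56, adjusted p = 0.0145, and -1.78 ± 0.37, adjusted p = 0.0156), with adjusted p-values of 0.053 and 0.0589 in the 6 samples alone. These and the caspase-8 cluster were chosen after their values were seen, and since the 4 clusters carry consecutive identifiers they may share sequence and reads, so they are not 4 independent measurements. Among the other cell death proteins, cell death abnormality protein 1, a receptor for engulfing dying cells in nematodes, fell at Cluster-2499.36087 from 12.1, 4.91 and 14.6 CPM to 0.421, 0.749 and 0.873 CPM (-3.93 ± 0.61, adjusted p = 0.00317). Cell death-related nuclease 6, which degrades DNA in dying nematode cells, had 2.27, 2.70 and 1.11 CPM in controls at Cluster-2499.35254 and no count in combined brains, at least 30.5-fold lower (adjusted p = 0.00699).

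Apoptosis-inducing factor 3 belongs to a family of mitochondrial oxidoreductases, and 2 clusters with its name rose. At Cluster-2499.91229 controls held 22.5, 22.1 and 30.4 CPM and combined brains held 53.5, 46.5 and 47.7 CPM (0.98 ± 0.20, adjusted p = 0.0125, and 0.0544 without control 4). Cluster-2499.87285 held 17, 9.18 and 18.8 CPM against 41.9, 28.3 and 32.6 CPM (1.19 ± 0.26, adjusted p = 0.0209, 0.0648 without combined 4 and 0.0904 in the 6 samples alone). The groups did not overlap at either.

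**Figure D3:**
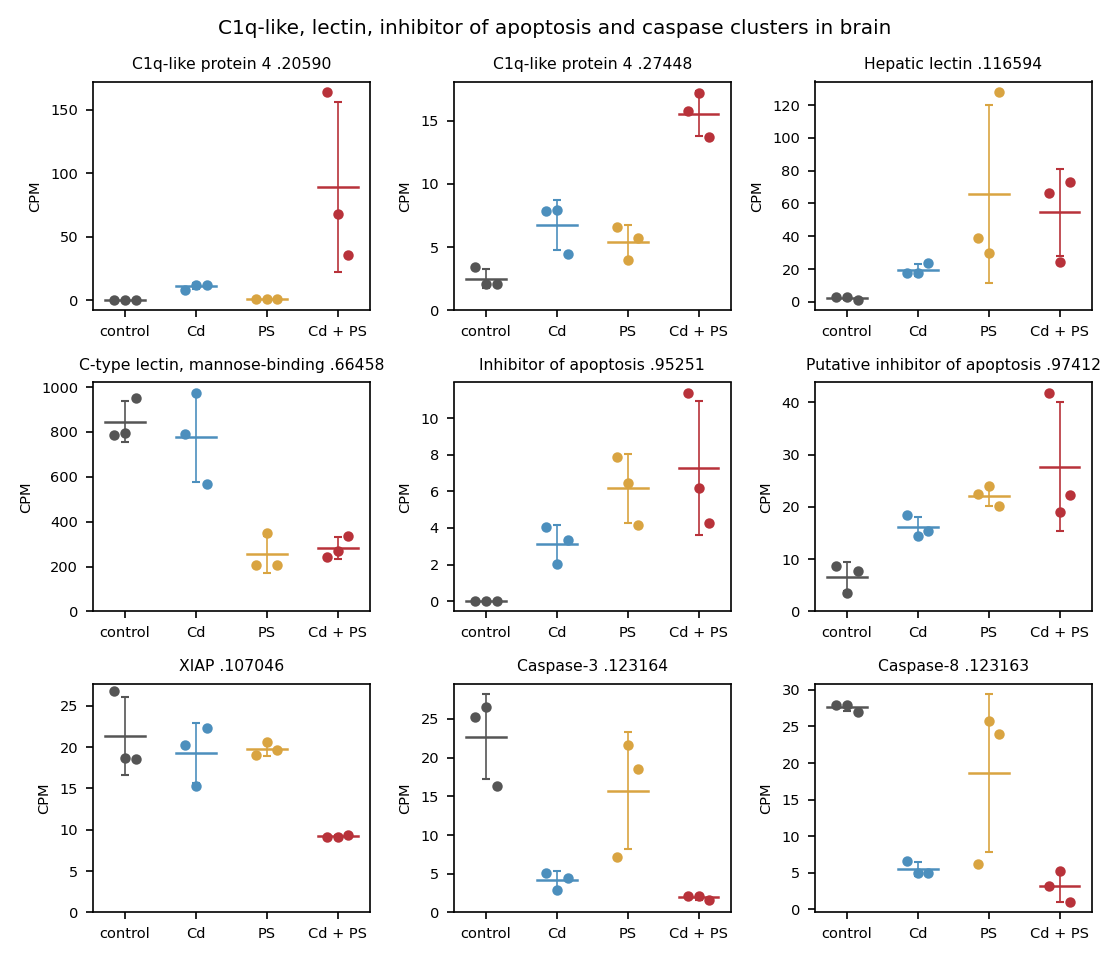
Levels in CPM of 9 clusters of lectins, inhibitors of apoptosis and caspases in the 12 brain libraries, with 1 panel per cluster, a dot per library, a bar at the group mean and error bars of 1 SD (n = 3). The 2 C1q-like panels, hepatic lectin and the first 2 inhibitor panels have combined dots above the control dots, and the mannose-binding C-type lectin, XIAP, caspase-3 and caspase-8 panels have them below.

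Muscle proteins were higher after the combined exposure in their summed level. Of 68 tested clusters, 6 rose and 1 fell, and the median log2 fold change was 0.45. The list summed to 26500, 23249 and 41074 CPM in controls and 82868, 61634 and 49217 CPM in combined brains, so that every combined library lay above every control. Both single exposures lay below every combined library, with 28105 to 43826 CPM under cadmium and 20340 to 37941 CPM under polystyrene. The number of muscle clusters that rose went to 1 without control 4, to 2 without combined 4 or combined 5, and to 12 without control 6. In bulk samples a change in the number of cells of a type and a change in RNA per cell cannot be told apart. The muscle sums moved with the groups, and their part in the other changes described here was not tested.

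Paramyosin and catchin are rod proteins of the molluscan thick filament. Paramyosin, at Cluster-2499.93231 and chosen after its values were seen, held 1424, 2393 and 2635 CPM in controls and 6957, 5323 and 4923 CPM in combined brains. The groups were apart, and the log2 fold change was 1.41 ± 0.33 (adjusted p = 0.026). That call was lost without combined 4 (0.066), combined 5 (0.0516), control 4 (0.0898) or control 5 (0.082), and with no filter on low counts (0.124) or in the 6 samples alone (0.0571). The catchin cluster Cluster-2499.50561 was called in every omission, with 28, 28.9 and 54.4 CPM in controls and 173, 134 and 117 CPM in combined brains (1.93 ± 0.34, adjusted p = 0.00684). Catchin was also higher than with cadmium alone (mean 47.5 CPM, adjusted p = 0.023) and with polystyrene alone (mean 52.2 CPM, adjusted p = 0.0323).

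Actin forms the thin filaments, and the adductor muscle actin Cluster-2499.85834 was among the most abundant clusters of the list. It held 3411, 4478 and 6741 CPM in controls and 15448, 12438 and 10786 CPM in combined brains (1.40 ± 0.33, adjusted p = 0.0259). The groups did not overlap, but the call was lost without combined 4 (0.0636), combined 5 (0.0544), control 4 (0.0928) or control 5 (0.1), and with no filter on low counts (0.128) or in the 6 samples alone (0.0758). Troponin I, the inhibitory subunit of the calcium switch on thin filaments, was scarce at Cluster-2499.58823 with 0.267, 0.427 and 0.455 CPM in controls and 3.08, 2.93 and 1.61 CPM in combined brains (2.71 ± 0.57, adjusted p = 0.0166, and 0.0674 without control 4). The striated muscle myosin heavy chain, Cluster-2499.89777, was the most abundant tested member and was not called. Its values were 8130, 4415 and 11868 CPM in controls and 22932, 14522 and 11122 CPM in combined brains, and combined 6 lay below control 6 (0.99 ± 0.35, adjusted p = 0.146). The 1 muscle cluster that fell, Cluster-2499.107630, was matched to myosin-13 (-0.83 ± 0.22, adjusted p = 0.0456), and that call was lost in 9 of the 12 omissions, with adjusted p-values up to 0.148 without control 4, and in the 6 samples alone (0.164).

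Actin-binding proteins of smooth muscle and of the cytoskeleton that were in none of the lists were chosen after their values were seen. Transgelin-2, at Cluster-2499.63125, held 99.0, 128 and 211 CPM in controls and 769, 668 and 652 CPM in combined brains (2.25 ± 0.36, adjusted p = 0.00409). A smoothelin-like protein 1, Cluster-2499.57793, held 16.5, 11.5 and 18 CPM in controls and 40.2, 34.6 and 29.3 CPM in combined brains (1.18 ± 0.22, adjusted p = 0.00952). Both groups of values were separate, and both calls stood in every omission.

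Small heat shock proteins hold unfolding proteins in solution and are abundant in muscle. Among 80 tested heat shock clusters, 3 rose (3.75%) and 1 fell (1.25%), and 1 rose without control 4 and none without control 5. Heat shock protein 27, at Cluster-2499.101986, held 178, 147 and 295 CPM in controls and 901, 751 and 593 CPM in combined brains, every combined value above every control (1.86 ± 0.35, adjusted p = 0.0103). The call was lost without control 4 (0.0508) or control 5 (0.0632), and with no filter on low counts (0.0632). The most abundant heat shock cluster, the constitutive chaperone heat shock cognate 71 kDa protein (Cluster-2499.88384), held 846, 763 and 1058 CPM in controls and 965, 806 and 772 CPM in combined brains (adjusted p = 0.906).

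**Figure D4:**
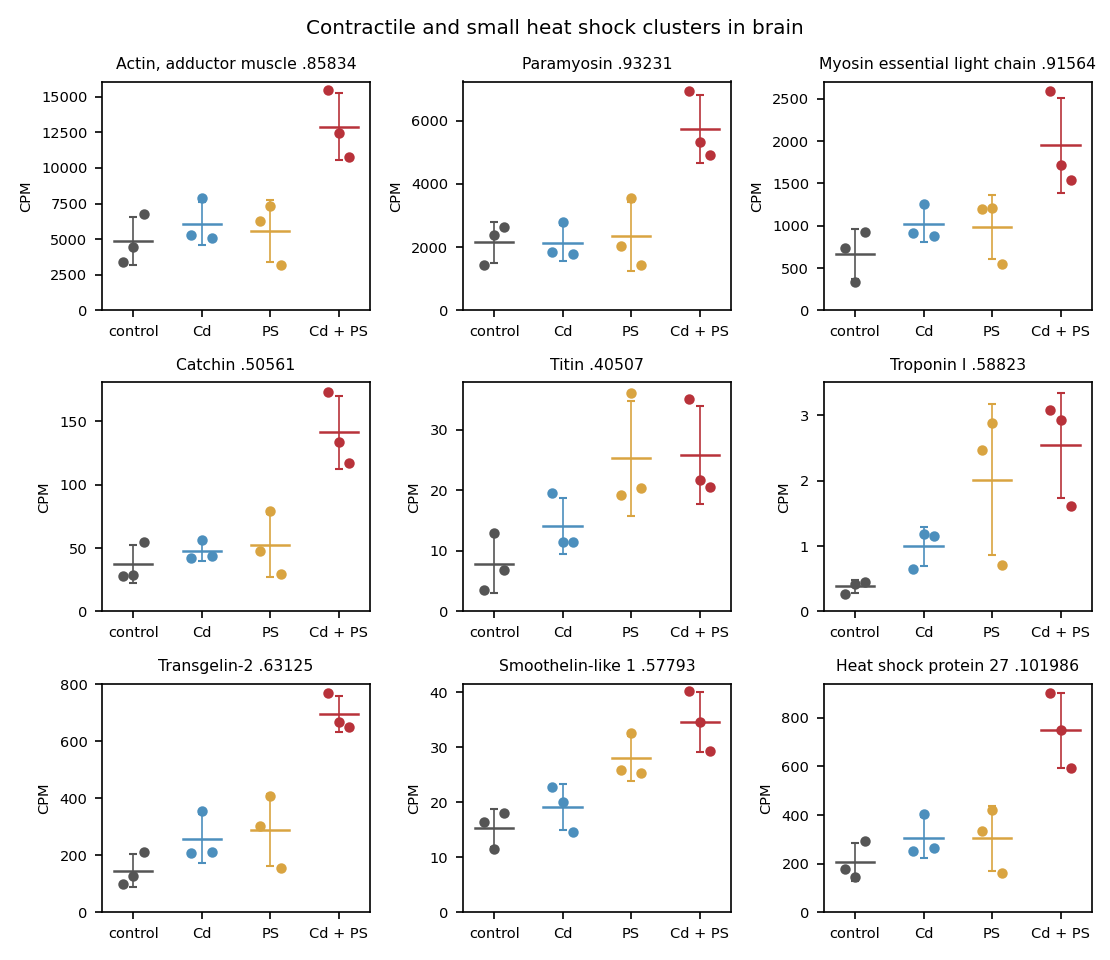
Levels in CPM of 9 clusters of contractile, actin-binding and small heat shock proteins in the 12 brain libraries, with 1 panel per cluster, a dot per library, a bar at the group mean and error bars of 1 SD (n = 3). The combined dots lie above the control dots in each panel, as for transgelin-2 with 652 to 769 CPM against 99.0 to 211 CPM.

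Mitochondrially encoded clusters carry the respiratory chain subunits that the mitochondrial genome specifies. Of 89 tested clusters, 14 fell and 5 rose, with a median log2 fold change of -0.45. The list as a whole overlapped between groups, at 32207, 67477 and 31719 CPM in controls and 39331, 36931 and 28167 CPM in combined brains. Several clusters represent each of the mitochondrial genes, and they did not move together. The number that fell was 7 without combined 5 and 14 without control 5, the library with the highest mitochondrial sum. The number that rose was 9 without control 5 and 2 without control 6, and 3 in most other omissions.

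Cytochrome c oxidase subunit 1 shows the split between clusters of 1 gene. Its 14 clusters summed to 12134, 21612 and 10660 CPM in controls and 13655, 13138 and 10711 CPM in combined brains, and 4 of them fell. Cluster-2499.84918 held 443, 524 and 1075 CPM in controls and 2.10, 6.62 and 5.91 CPM in combined brains (-7.12 ± 0.65, adjusted p = 0.000355). It kept a mean of 296 CPM with cadmium and 381 CPM with polystyrene, and the combined brains were lower than both (adjusted p = 0.000763 and 0.000569). The most abundant cluster of the gene, Cluster-2499.88164, was not called, at 7139, 9456 and 4353 CPM in controls and 9549, 9083 and 7724 CPM in combined brains (adjusted p = 0.566).

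Of 10 cytochrome b clusters, 3 rose and 1 fell. A cytochrome b cluster, Cluster-2499.80522, fell from 389, 138 and 1137 CPM to 0.350, 3.37 and 4.36 CPM (-7.67 ± 1.14, adjusted p = 0.00776). A second cytochrome b cluster, Cluster-2499.74218, rose from 3.93, 3.42 and 7.74 CPM to 9.53, 24.7 and 26.9 CPM (2.01 ± 0.37, adjusted p = 0.00795, and 0.0569 in the 6 samples alone). For both the control and combined libraries were separate.

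No cluster of subunits 1, 3 or 4 of NADH dehydrogenase was called. ATP synthase subunit a, the proton channel subunit, fell at Cluster-2499.86597 from 501, 767 and 1163 CPM to 134, 90.0 and 80.3 CPM (-3.0 ± 0.34, adjusted p = 0.000475). Subunit 5 of NADH dehydrogenase rose at Cluster-2499.88267 from 126, 67.7 and 56.4 CPM to 346, 339 and 200 CPM (1.82 ± 0.30, adjusted p = 0.00418). The chain 4L gene was lower as a sum of its 3 clusters, at 190, 510 and 400 CPM in controls and 107, 58.9 and 41.8 CPM in combined brains, although 1 of the 3 was called. That cluster, Cluster-2499.84200, chosen after its values were seen, held 151, 321 and 374 CPM in controls and 48.6, 34.9 and 18.1 CPM in combined brains (-3.06 ± 0.41, adjusted p = 0.00203). The files do not say whether such clusters differ by sequence variants between animals, by assembly or by level, and which of these accompanied the calls was not tested.

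**Figure D5:**
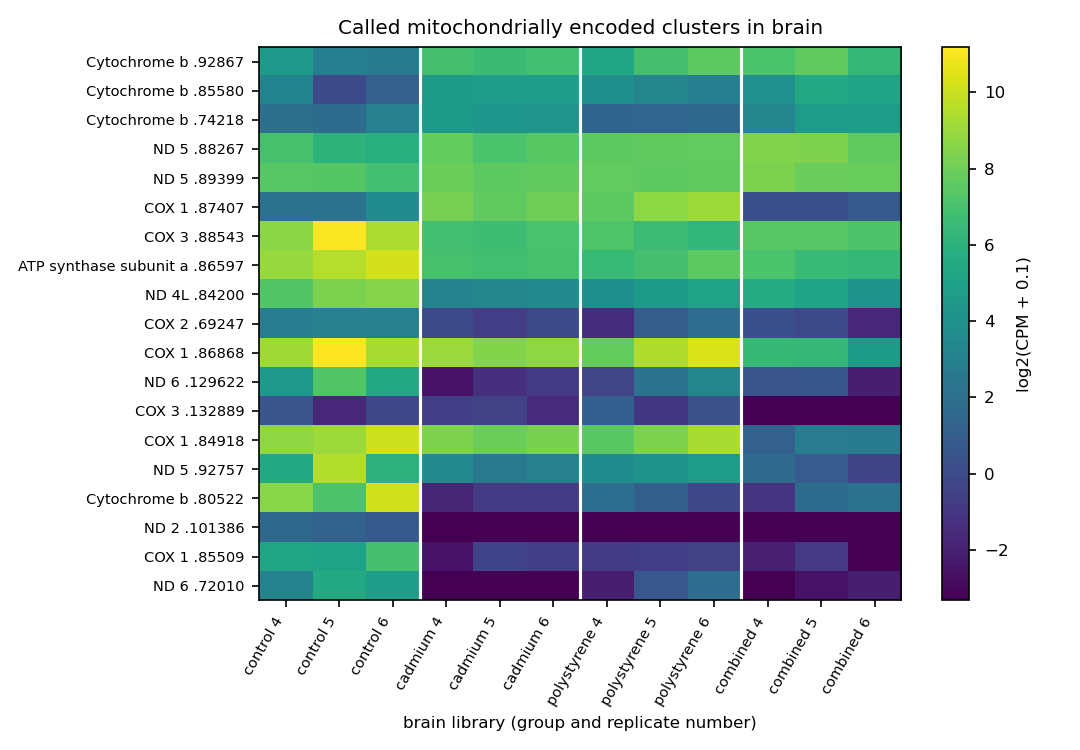
Levels of the 19 called mitochondrially encoded clusters in the 12 brain libraries, as log2(CPM + 0.1), with 1 row per cluster and columns ordered control, cadmium, polystyrene and combined. In 14 rows the combined columns are lower than the control columns and in 5 they are higher.

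Matrix and secreted adhesion proteins build the sheath around the ganglia and the surfaces of cells. Of 312 tested clusters, 11 rose and 11 fell (3.53% each), and the median log2 fold change was 0.03. The 11 that rose became 4 without control 4 and 6 without combined 5 or combined 6, and the number that fell was 8 to 14 over the omissions. Hemicentins are very long matrix proteins with immunoglobulin repeats, and of 50 tested clusters 8 fell and 2 rose. The median log2 fold change over the 50 was 0.25, opposite in sign to most of the calls. Cluster-2499.94989, matched to hemicentin-1, held 32.3, 12 and 23.2 CPM in controls and had no count in the combined libraries, at least 338-fold lower (adjusted p = 0.000289). That cluster was at or near 0 in both single exposures as well, with means of 0.0791 CPM with cadmium and 0 CPM with polystyrene.

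A second hemicentin-1 cluster, Cluster-2499.124849, held 46.5, 19.7 and 44.1 CPM in controls and 1.54, 1.94 and 2.69 CPM in combined brains (-4.16 ± 0.51, adjusted p = 0.00137). Its mean was 1.14 CPM with cadmium and 90.2 CPM with polystyrene, so the combined brains were lower than the polystyrene brains (adjusted p = 0.000429). Hemicentin-2 cluster Cluster-2499.91931 rose from 0.0667, 0 and 0 CPM to 15.6, 2.31 and 5.98 CPM (8.02 ± 1.04, adjusted p = 0.00122). The most abundant hemicentin, Cluster-2499.121754, was not called at 1582, 1313 and 2622 CPM in controls and 1056, 988 and 3045 CPM in combined brains (adjusted p = 0.966).

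A mucin-like protein, a glycosylated secreted protein, was detected at Cluster-2499.146995 in the combined libraries at 15.8, 6.87 and 2.89 CPM and had no count in the controls, at least 126-fold higher (adjusted p = 0.000996). Thrombomodulin, a membrane glycoprotein that binds thrombin in mammals, was matched by Cluster-2499.148402, with 25, 11.4 and 4.70 CPM in combined brains and no count in controls, at least 203-fold higher (adjusted p = 0.00102). Single exposures also held both clusters, at means of 12.7 and 6.04 CPM for the mucin-like protein and 20.7 and 7.65 CPM for the thrombomodulin match, with cadmium and polystyrene respectively.

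Further secreted proteins outside the lists were chosen after their values were seen. A tissue inhibitor of metalloproteinase, Cluster-2499.79175, from a family that blocks matrix-degrading enzymes, held 0.800, 0.285 and 0.780 CPM in controls and 31.0, 8.05 and 26.7 CPM in combined brains (5.11 ± 0.67, adjusted p = 0.00197). A protein with multiple epidermal growth factor-like domains, Cluster-2499.139125, held 2.27, 2.42 and 1.30 CPM in controls and 53.1, 85.6 and 91.2 CPM in combined brains (5.26 ± 0.73, adjusted p = 0.00422). Every combined library was above every control for each. Their means with polystyrene alone were 15.6 and 102 CPM, and the combined brains did not pass the test against it (adjusted p = 0.693 and 0.79). With cadmium alone the means were 4.13 and 40.6 CPM (adjusted p = 0.0399 and 0.551 for combined against cadmium).

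Sushi domains are the repeats of complement regulators. Of 39 tested clusters named for sushi, von Willebrand factor type A and EGF domains, 6 fell and none rose, with a median log2 fold change of -0.02. The sushi and cubilin clusters named here were chosen after their values were seen. Cluster-2499.126027 of that group held 68.5, 31.3 and 52.2 CPM in controls and 2.59, 1.75 and 3.69 CPM in combined brains (-4.24 ± 0.50, adjusted p = 0.00116). A related protein with sushi and HYR domains, Cluster-2499.36967, held 14.5, 15.7 and 10.3 CPM in controls and 0.210, 0.125 and 0.336 CPM in combined brains (-5.87 ± 0.51, adjusted p = 7.91e-05). Scavenger receptors with cysteine-rich domains, which bind polyanions on microbes, had 4 clusters that fell among 25 and none that rose. Their median log2 fold change was 0.04. Their sums overlapped, at 3508, 1757 and 4727 CPM in controls and 2485, 1435 and 1561 CPM in combined brains. Cubilin, an endocytic receptor for vitamin and protein uptake in mammals, went both ways, with 5 of 59 clusters higher and 6 lower. The cubilin cluster Cluster-2499.36820 rose from 1.07, 0.213 and 2.34 CPM to 23.8, 13.6 and 12.2 CPM (3.75 ± 0.52, adjusted p = 0.0018), and Cluster-2499.126290 fell from 14.6, 10.5 and 20.5 CPM to 2.45, 4.06 and 2.95 CPM (-2.26 ± 0.37, adjusted p = 0.00444).

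Some clusters matched toxins of other animals. The match to Millepora cytotoxin-1, a protein of fire corals, Cluster-2499.91776, chosen after its values were seen, held 223, 197 and 146 CPM in controls and 41.4, 41.8 and 27.3 CPM in combined brains (-2.36 ± 0.36, adjusted p = 0.00321). The combined brains were also below the cadmium brains (mean 229 CPM, adjusted p = 0.00198) and the polystyrene brains (mean 122 CPM, adjusted p = 0.0175). A tereporin match, Cluster-2499.89186, a pore-forming protein of predatory snails, held 11.8, 7.54 and 2.99 CPM in controls and 0.0701, 0.0624 and 0 CPM in combined brains (-7.15 ± 1.09, adjusted p = 0.00348).

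Neuronal signalling lists had shares near the background or below it, apart from transmitter synthesis and uptake with 2.35% called lower. Of 141 tested neurotransmitter receptors, 3 rose (2.13%) and 1 fell (0.709%), and of 150 clusters in the ion channel list, 3 rose (2.0%) and 1 fell (0.667%). A metabotropic glutamate receptor 5 match, a receptor that couples glutamate to calcium release, had no count in the controls at Cluster-2499.20619 and 3.78, 15.1 and 22.0 CPM in combined brains, at least 202-fold higher (adjusted p = 0.00364). It was also at 0 CPM with cadmium and at a mean of 0.0445 CPM with polystyrene (adjusted p = 0.004 and 0.00516 for combined against each). This receptor cluster passed the filter on low counts only through the combined brains. The most abundant receptor, matched to metabotropic glutamate receptor 7 (Cluster-2499.89215), held 697, 559 and 608 CPM in controls and 680, 449 and 860 CPM in combined brains and was not called (adjusted p = 0.892).

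Serotonin receptor 2B, at Cluster-2499.108711, held 14.1, 11.6 and 15.5 CPM in controls and 6.17, 7.68 and 6.78 CPM in combined brains, with no overlap (-1.0 ± 0.20, adjusted p = 0.0114, and 0.0822 in the 6 samples alone). A transient receptor potential channel, from a family of cation channels in sensory cells, had no count in controls at Cluster-2499.44129 and 1.96, 4.12 and 3.09 CPM in combined brains, at least 45.3-fold higher (adjusted p = 0.00038). Polystyrene brains held that channel at a mean of 9.98 CPM and cadmium brains at 0.0249 CPM. A voltage-gated potassium channel of the Shab type, which shapes repetitive firing, was chosen after its values were seen. The name pattern of the ion channel list missed it, so it is not in the counts of that list. Its cluster, Cluster-2499.111306, held 18.5, 13.1 and 19.5 CPM in controls and 43.8, 33.1 and 27.1 CPM in combined brains (1.02 ± 0.21, adjusted p = 0.0131, and 0.0897 in the 6 samples alone).

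Peptide signalling had 1 of 98 tested clusters called, an orexin receptor match. Cluster-2499.109231 held 21.4, 17.4 and 23.6 CPM in controls and 50.7, 38.9 and 39.5 CPM in combined brains (1.05 ± 0.24, adjusted p = 0.0233). The call was lost without combined 4 (0.0684), control 4 (0.0637) or control 5 (0.0541). The FMRFamide precursor, the most abundant peptide cluster of the list (Cluster-2499.126111), overlapped at 310, 907 and 472 CPM in controls and 622, 320 and 311 CPM in combined brains (adjusted p = 0.615). FMRFamide is a peptide that excites or inhibits molluscan muscle and neurons.

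Neuronal marker proteins had 1 cluster higher and 1 lower among 94. A notch-1 match, the cell fate receptor, fell at Cluster-2499.36408 from 86.6, 22.3 and 71.6 CPM to 6.87, 1.06 and 2.89 CPM (-4.07 ± 0.63, adjusted p = 0.00576). Contactin, an axonal adhesion protein, rose at Cluster-2499.60391 from 2.13, 0.640 and 1.30 CPM to 5.54, 5.74 and 5.51 CPM (2.03 ± 0.42, adjusted p = 0.0143, and 0.0571 in the 6 samples alone). Excitatory amino acid transporter 1, which clears glutamate from synapses in mammals, was lower at Cluster-2499.113272 with 94.0, 112 and 95.7 CPM in controls and 20.5, 38.3 and 55.1 CPM in combined brains. That change passed narrowly (-1.40 ± 0.36, adjusted p = 0.0453) and was lost in 9 of the 12 omissions, with adjusted p-values up to 0.153 without control 5, and in the 6 samples alone (0.0739).

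Genes of metal handling and detoxification, the classes most often followed in cadmium exposure, had few calls. No cluster in the table was named metallothionein, the thiol-rich protein that binds cadmium. Of 49 tested metal transport clusters, 2 rose (4.08%) and none fell, with a median log2 fold change of 0.30. Both were ZIP transporters, which carry zinc and in mammals also cadmium into cells. ZIP8 at Cluster-2499.89166 held 4.13, 2.63 and 6.37 CPM in controls and 16.9, 8.99 and 9.87 CPM in combined brains (1.44 ± 0.38, adjusted p = 0.0488), and 9 of the 12 omissions ended that call, with adjusted p-values up to 0.158 without combined 4, as did the fit of the 6 samples alone (0.121). ZIP14 at Cluster-2499.10048 held 0.200, 0.0711 and 0.455 CPM in controls and 3.22, 1.56 and 1.68 CPM in combined brains (3.09 ± 0.76, adjusted p = 0.0348), and 6 of the 12 omissions ended it, with adjusted p-values up to 0.107 without control 4, as did the fit of the 6 samples alone (0.0571). The most abundant metal transport cluster, matched to copper-transporting ATPase 1 (Cluster-2499.88663), held 383, 297 and 290 CPM in controls and 606, 270 and 384 CPM in combined brains, overlapped, and was not called (adjusted p = 0.495).

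Cytochrome P450 enzymes oxidise foreign compounds and steroids, and 2 of 147 tested clusters rose (1.36%) while none fell, although 4 fell without control 5. The 2C20 match Cluster-2499.88450 held 5.73, 4.70 and 3.84 CPM in controls and 31.3, 15.6 and 17 CPM in combined brains (2.16 ± 0.32, adjusted p = 0.00233). Conjugating enzymes had 2 of 126 clusters higher (1.59%) and 1 lower (0.794%). UDP-glucuronosyltransferase 1-6, which attaches glucuronic acid, rose at Cluster-2499.82381 from 4.67, 7.61 and 8.84 CPM to 22.7, 21.5 and 19.9 CPM (1.60 ± 0.33, adjusted p = 0.0143, and 0.0573 without control 4). The lipid transporter ABCA3 was the 1 called cluster of 65 ABC transporters, at Cluster-2499.69072, with 1.67, 0.356 and 0.910 CPM in controls and 6.87, 3.62 and 4.63 CPM in combined brains (2.35 ± 0.46, adjusted p = 0.0107, and 0.0717 in the 6 samples alone). The groups were separate at these clusters.

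Antioxidant and thiol redox proteins had 3 of 83 clusters higher (3.61%) and 2 lower (2.41%), and the omissions gave 0 to 3 higher and 0 to 2 lower, with neither direction called without combined 4, combined 5 or control 5. Their summed level was 7982, 5910 and 8638 CPM in controls and 16097, 9871 and 10402 CPM in combined brains. Every combined library was above every control in that sum, which was not tested. Soma ferritin, the iron store and the most abundant member (Cluster-2499.88255), held 3161, 2063 and 3158 CPM in controls and 6684, 3110 and 4073 CPM in combined brains, overlapped, and was not called (adjusted p = 0.203).

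Transposon-derived clusters were called at about the shares over all tested clusters, 8 higher and 8 lower among 392 (2.04% each). Over clusters with an informative name the shares were 1.76% higher and 1.14% lower. The 8 that fell became 2 without any 1 of the combined libraries, 3 without control 6 and 4 without control 4, and the 8 that rose became 5 without combined 5. A PiggyBac-derived protein, from a DNA transposon family, rose at Cluster-2499.95114 from 11.8, 19.9 and 17.4 CPM to 57.3, 49.6 and 32.5 CPM (1.51 ± 0.26, adjusted p = 0.00535). Its mean with cadmium alone was 7.76 CPM, below the combined level (adjusted p = 0.000292). A retrovirus-related Pol polyprotein, Cluster-2499.93286, rose from 7.33, 7.76 and 14.2 CPM to 58.2, 37.1 and 33.8 CPM (2.14 ± 0.33, adjusted p = 0.00329). Another Pol cluster, Cluster-2499.62809, held 3.33, 5.34 and 4.42 CPM in controls and no count in combined brains, at least 65.7-fold lower (adjusted p = 0.00611).

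Ubiquitin and proteasome proteins had 12 of 586 clusters higher (2.05%), near the background, and 3 lower (0.512%). Leaving out single libraries gave 7 to 14 higher, the lowest without control 6, and 1 to 5 lower, the highest without control 5. The deubiquitinase USP24 match Cluster-2499.96022 held 14.6, 9.82 and 12 CPM in controls and 25.4, 23.8 and 35.5 CPM in combined brains (1.22 ± 0.20, adjusted p = 0.00497). A ubiquitin ligase match to DTX3, Cluster-2499.111643, had no count in controls and 0.561, 2.62 and 1.61 CPM in combined brains, at least 23.7-fold higher (adjusted p = 0.00252). Single exposures held more of it, at means of 17.1 CPM with cadmium and 19.5 CPM with polystyrene, and the combined brains were lower than both (adjusted p = 0.0019 and 0.00153). The DTX3 match passed the filter on low counts only through the single exposures and was not tested in the 6 samples alone. Transcription factors had 4 of 382 clusters higher (1.05%) and none lower, with 1 higher without combined 4 or control 4, among them the zinc finger protein 658B match Cluster-2499.47437, with 0.866, 0.569 and 1.17 CPM in controls and 2.38, 3.62 and 4.23 CPM in combined brains (1.96 ± 0.38, adjusted p = 0.0105, and 0.0704 in the 6 samples alone).

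Membrane transporters of nutrients were in none of the lists and were chosen after their values were seen. The light-chain amino acid transporter matched to the large neutral amino acids transporter small subunit, Cluster-2499.96337, held 2.40, 2.49 and 1.69 CPM in controls and 15.6, 9.80 and 7.25 CPM in combined brains (2.31 ± 0.35, adjusted p = 0.00258). Monocarboxylate transporter 7, Cluster-2499.99774, of a family that moves lactate and related acids, held 2.0, 1.49 and 3.19 CPM in controls and 13.1, 9.80 and 9.13 CPM in combined brains (2.25 ± 0.42, adjusted p = 0.00801). Both were higher in all 3 combined libraries than in any control.

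A few named clusters followed a single group across all 12 brain libraries. Of all 2513 called clusters, 16 were detected in combined brains alone and 43 in controls alone. Of the 485 called with an informative name, the counts were 1 and 3. The IMAP match described above was detected in combined brains alone, and 3 clusters were detected in controls and in no exposed brain. These were an SRPX2 match, Cluster-2499.76263, at 7.47, 3.42 and 3.90 CPM in controls and at least 74.2-fold lower in combined brains (adjusted p = 0.00275), an SRPX match, Cluster-2499.36208, at 6.07, 1.14 and 3.45 CPM and at least 53.5-fold lower (adjusted p = 0.00969), and an NADH dehydrogenase subunit 2 cluster, Cluster-2499.101386, at 2.93, 2.21 and 1.56 CPM and at least 33.6-fold lower (adjusted p = 0.00972). SRPX and SRPX2 are proteins with sushi repeats. In DESeq2 the SRPX call was lost (adjusted p = 0.285). The 3 clusters were chosen after their values were seen and passed the filter on low counts only through the controls.

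The same fit tested the combined brains directly against each single exposure. Against cadmium alone, 1785 clusters differed (2.79%), 802 higher (1.25%) and 983 lower (1.53%), and against polystyrene alone 2247 differed (3.51%), 797 higher (1.24%) and 1450 lower (2.26%). The 2 counts share the combined libraries, so they are given side by side without an overlap. Of the IMAP clusters, 14 were higher and 11 lower than with cadmium, and 8 were higher and 11 lower than with polystyrene. Muscle clusters were 4 higher and 1 lower than with cadmium, and 3 higher and 1 lower than with polystyrene. Of the mitochondrially encoded clusters, 3 were higher and 8 lower than with cadmium, and 2 were higher and 7 lower than with polystyrene. The XIAP match Cluster-2499.107046 averaged 19.3 CPM with cadmium and 19.7 CPM with polystyrene, and the combined brains were lower than each (adjusted p = 0.0109 and 0.00938). Caspase-3 cluster Cluster-2499.123164 averaged 4.18 CPM with cadmium, which the combined brains did not differ from by the test (adjusted p = 0.166), and 15.8 CPM with polystyrene, above the combined level (adjusted p = 0.000987).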

How the data were processed

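Each cluster's value was an expected count, deposited by the authors in 1 table of 24 samples and not normalised, per the file headers; the programs used for assembly, alignment and counting were not given in the sources used here. Libraries were made with the SMARTER mRNA-Seq kit, per the labels' protocols. Expected counts were rounded and tested with edgeR 4.0.16 in R 4.3.3 (filterByExpr with a minimum count of 10, TMM scaling, robust quasi-likelihood test with Benjamini-Hochberg adjustment, call at adjusted p under 0.05). The 12 brain samples in 4 groups were fitted together. CPM used TMM-scaled library sizes. The 64046 tested clusters held 98.57% of brain counts, and depth was 14450162 to 16800808 counts per brain library. With 3 against 3 samples, a single-value permutation test cannot go below p = 0.1.

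The members and lists were chosen with earlier results of these data known, and name patterns of some lists were corrected after cluster names were seen. The naming rule took the 10 largest changes per direction where the group with the higher mean reached 5 CPM and the groups did not overlap, as many as 3 called members of each list either way from 1 CPM, and each list's most abundant member. The text names 94 clusters, a subset of those the rule gives plus 25 outside it that were chosen after their values were seen. The procedure was also run on simulated data with independent counts for each cluster. That simulation held no reads shared between clusters and no outlying library, so it could not assess either. Alternatives were other filters, scalings and tools (DESeq2 1.42.0), a replicate block, the 6 compared samples alone, and each library left out. Same-numbered samples do not pair by any label.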

Additional observations from a re-analysis of the deposited data

How the results depend on the processing

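The 2513 calls between combined and control brains became 5995 with no filter on low counts, 4813 in DESeq2's Wald test and 1340 when the 6 compared samples were fitted alone, and leaving out single libraries gave 1502 to 2722. Against cadmium the 1785 calls became 4493 with no filter and 3459 in DESeq2, and 780 to 2816 when single libraries were left out. Against polystyrene the 2247 calls became 5327 with no filter and 4417 in DESeq2, and 887 to 3877 when single libraries were left out. The library omissions that moved these counts by over 1.5 times were combined 5 (1502) and control 4 (1656) for control; cadmium 4 (780), cadmium 5 (1011), cadmium 6 (963), combined 5 (896) and control 5 (2816) for cadmium; and combined 4 (1347), combined 5 (918), control 5 (3877), polystyrene 5 (908) and polystyrene 6 (887) for polystyrene. The causes of these differences were not tested. With plain library totals, 24.6% of the calls against polystyrene were higher, against 35.5% with TMM, and the median log2 fold change of all clusters shifted to -0.148.

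Same-numbered samples shared only a number: correlations of their deviations lay between -0.124 and 0.133 over 18 pairs of the brain groups, 2 of them above 0.1. A fit with the replicate number as a block gave 2031 calls against control, 1471 against cadmium and 1763 against polystyrene. Of the 83 named clusters that were called, 70 were called in every omission and 3 were not called under the block. Of all 94 named clusters, 74 kept their result when the 6 samples were fitted alone and 18 lost the call. The rest, IMAP match Cluster-2499.86745 and DTX3 match Cluster-2499.111643, were not tested in that fit. Every called cluster kept its direction in each fit that tested it. Among the named clusters that were not called, the sign of the log2 fold change differed between omissions for hemicentin-1 Cluster-2499.121754 (-0.83 to 0.24), FMRFamide Cluster-2499.126111 (-0.82 to 0.11), heat shock cognate 71 Cluster-2499.88384 (-0.16 to 0.09) and glutamate receptor 7 Cluster-2499.89215 (-0.12 to 0.33). Depth limits clusters with no count, whose level is known only as below the stated floor.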
